A study of Homo sapiens with 4 samples.

Results

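RNA of HGC-27 cells treated with isorhamnetin (ISO) was compared with RNA of untreated HGC-27 cells, over all 2897 genes of the expression table that the authors deposited. The comparison uses 2 of the 4 samples of the series, chosen by their labels, and the other 2 are the same treatment and control in AGS-1 cells. Both are human gastric cancer cell lines, labelled wild type (WT) and grown in RPMI medium. The treated cultures received ISO at 50 µM for 24 h according to the labels, while the text of the study names a lower dose, and the controls are labelled untreated. There is 1 library per condition in the series, although the text of the study speaks of duplicates. No spread between cultures could therefore be measured, no p-value is given, and every difference describes these libraries.

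Isorhamnetin is a plant flavonol, a methylated derivative of quercetin, studied for its effects on cell growth, survival and oxidative stress. HGC-27 was derived from a metastasis of an undifferentiated gastric carcinoma. The question put to the RNA was which functions change in HGC-27 when the cells meet ISO. Values are FPKM, that is, fragment counts scaled to the length of the gene and the depth of the library. Changes are log2 ratios, treated over untreated, after 1 was added to every value, and −1 is a 2-fold decrease. The added 1 makes the change of genes with low values look smaller. In bulk RNA, fewer cells of a type and less RNA per cell cannot be told apart.

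The deposited values are whole multiples of the value of 1 fragment, so the depth could be recovered: the untreated library held 20199425 fragments in all and the treated library 17072456. Genes in the table accounted for 61.05% and 59.96% of them. How the authors picked the 2897 genes is not given in the sources used here, and 2595 of them (89.6%) had a mean of at least 10 FPKM over both HGC-27 libraries. The counting standard error of a log2 ratio had a median of 0.0470 over the genes and exceeded 0.2 for 134 genes, all with few fragments. Intervals and standard errors cover counting error only.

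HGC-27 is described as a mesenchymal-like line, and the levels of marker genes in the table are given for it. Of 17 mesenchymal markers, 8 are in the table, and all 8 were higher in the HGC-27 control than in the AGS-1 control. Their summed level was 1699 FPKM in the HGC-27 control and 1236 FPKM under ISO, against 83.9 and 48.7 FPKM in AGS-1. The most abundant was COL3A1, a fibrillar collagen, at 427 FPKM in the control and 289 FPKM under ISO. The intermediate filament gene VIM stood at 306 and 249 FPKM. Of 21 epithelial markers, 14 are in the table, and all of them were lower in the HGC-27 control than in the AGS-1 control. They summed to 17.2 FPKM in the HGC-27 control and 14.4 FPKM under ISO, against 3408 and 2237 FPKM in AGS-1. The keratin KRT19 was listed at 0 in both HGC-27 libraries, and the adhesion molecule EPCAM at 0.387 and 0.506 FPKM. Markers may have entered the table through the line in which they are high, so their direction between the lines can follow from the selection of genes and does not test the label. The blood cell marker LYZ and the intestinal marker CDH17 were listed at 0 in both HGC-27 libraries, and the endothelial marker ESAM was at 1.63 and 3.07 FPKM. No gene of the gastric epithelium list was in the table, so these were not analysed here.

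All 8 mesenchymal markers were lower under ISO than in the control, TWIST1 most (334 to 155 FPKM, −1.10) and COL6A2 least (50.8 to 46.6 FPKM, −0.12). TWIST1 is a transcription factor of the epithelial-mesenchymal transition. Of the 14 epithelial markers, 9 were lower, 4 higher and 1 was at 0 in both, all of them below 5 FPKM. Both counts can be read against all genes of the table, at any level, of which 64.2% were lower.

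Over all genes, RNA levels in HGC-27 moved little and slightly downward. The median log2 ratio was −0.11, with quartiles of −0.29 and 0.09, and 1860 genes (64.2%) were lower under ISO than in the control. At least 2-fold higher were 16 genes (0.552% of the table) and at least 2-fold lower 27 genes (0.932%). At the wider line of 1.5-fold, 69 genes were higher (2.38%) and 156 lower (5.38%). The split depends on the scaling of the libraries. Measured from the median of all genes, 22 genes were at least 2-fold higher (0.759%) and 18 lower (0.621%), and at 1.5-fold 115 were higher (3.97%) and 92 lower (3.18%). Median-of-ratios scaling adds 0.12 to the log2 ratios and gave the same 22 and 18. Upper-quartile scaling adds 0.15, gave 26 and 15, and moved the median of all genes to 0.03. Whether falls outnumber rises therefore depends on the scaling, while no list median moved by 0.1 or more relative to the median of all genes under any scaling.

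**Figure D1:**
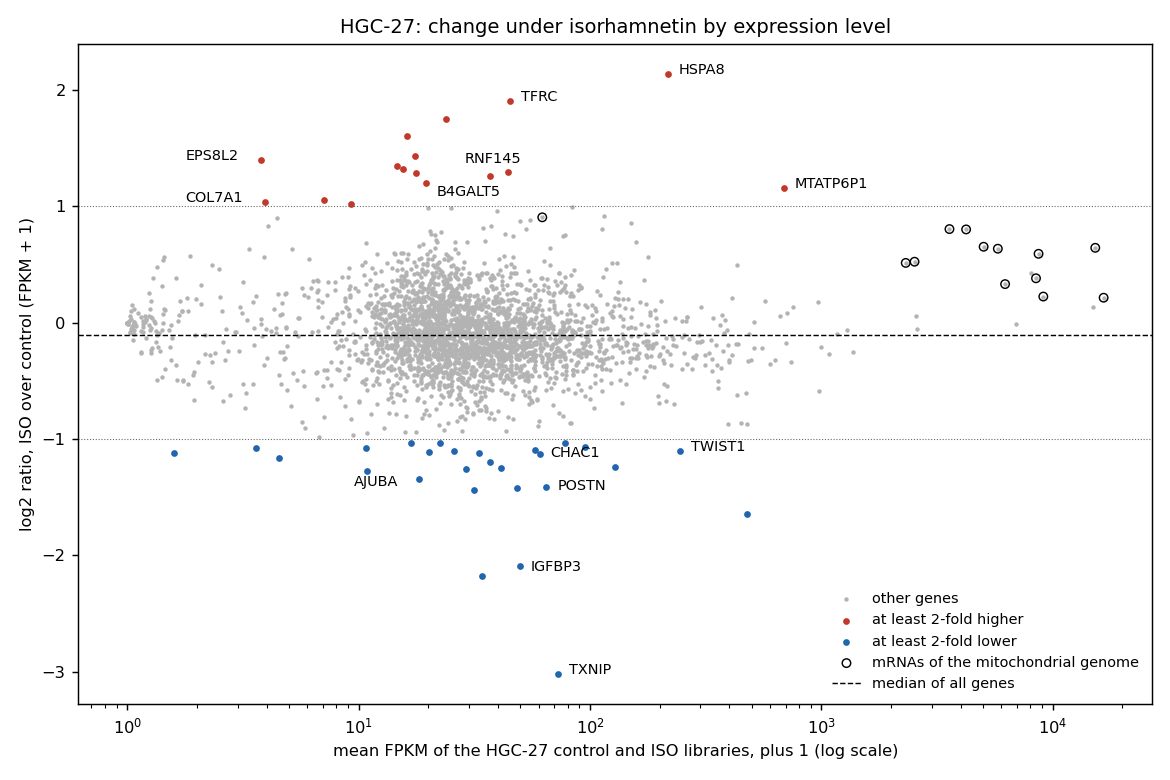
Each point is 1 of 2897 genes, with its mean FPKM plus 1 over the HGC-27 control and ISO libraries on a log axis and its log2 ratio of ISO to control. HSPA8 (2.14) and TXNIP (−3.02) are the extremes, the dashed line marks the median of −0.11, and the 13 circled mRNAs of the mitochondrial genome all lie above 0.

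The lowest ratio belonged to TXNIP (chromosome 1, 145992435 to 145996579), which codes for a thioredoxin-binding protein that curbs glucose uptake. It stood at 128 FPKM in the control and 14.9 FPKM under ISO, a log2 ratio of −3.02 (counting SE 0.0499). In AGS-1 it stood at 312 and 65.1 FPKM, so it was lower under ISO in both lines. IGFBP3, a secreted protein that binds insulin-like growth factors, went from 79.8 to 18.0 FPKM in HGC-27 (−2.09, counting SE 0.0420) and was at or near 0 in AGS-1. The histone gene H1-10 went from 128 to 60.5 FPKM (−1.07).

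Of the 27 genes at least 2-fold lower, 22 code for proteins. POSTN, which codes for periostin, a matrix protein made by mesenchymal cells, went from 93.1 to 34.4 FPKM (−1.41) and was listed at 0 in both AGS-1 libraries. LTBP1, which holds latent TGF-beta in the matrix, went from 50.5 to 21.5 FPKM (−1.20). INHBE, the gene of an activin subunit, was at 57.1 FPKM in the control and 23.5 FPKM under ISO (−1.25). DKK1, a secreted Wnt antagonist, went from 78.2 to 36.0 FPKM (−1.10), the Wnt ligand WNT10B from 13.6 to 5.88 FPKM (−1.08), and the Wnt feedback gene AXIN2 from 29.1 to 13.7 FPKM (−1.03).

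TWIST1 and the homeobox gene PRRX2, which went from 104 to 50.1 FPKM (−1.03), are factors of mesenchymal cells, and both were at or near 0 in AGS-1. KLF5, a zinc finger factor of dividing epithelia, went from 26.6 to 11.8 FPKM (−1.11). TSC22D3, a glucocorticoid-induced gene, went from 40.1 to 16.2 FPKM (−1.26), and FOSB, an AP-1 subunit, from 5.24 to 1.79 FPKM (−1.16). The Hippo pathway adaptor genes AJUBA (25.1 to 9.26 FPKM, −1.34) and AMOTL2 (14.4 to 5.39 FPKM, −1.27) were lower as well. At the cell surface, the receptor tyrosine kinase gene EPHA2 went from 21.7 to 10.0 FPKM (−1.04) and the interferon gamma receptor gene IFNGR1 from 34.2 to 15.4 FPKM (−1.10). CHAC1, which codes for an enzyme that degrades glutathione, went from 82.2 to 37.2 FPKM (−1.13). AVPI1 (44.2 to 19.8 FPKM, −1.12) and the clathrin adaptor gene AP1M2 (3.89 to 1.32 FPKM, −1.07) were lower too.

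Of the 16 genes that were at least 2-fold higher, 6 code for proteins. HSPA8 (chromosome 11, 123057489 to 123063230), the constitutive cytosolic HSP70 chaperone, had 79.7 FPKM in the control and 354 FPKM under ISO, a log2 ratio of 2.14 (counting SE 0.0184). TFRC, the transferrin receptor that brings iron into the cell, had 18.0 and 70.1 FPKM (1.91, counting SE 0.0310). Both genes were also higher under ISO in AGS-1, HSPA8 at 54.5 and 122 FPKM and TFRC at 13.197 and 32.0 FPKM. RNF145, a ubiquitin ligase of the endoplasmic reticulum (ER), went from 20.8 to 51.4 FPKM (1.26), and B4GALT5, a Golgi enzyme that makes lactosylceramide, from 10.9 to 26.3 FPKM (1.20). EPS8L2 (1.09 to 4.499 FPKM, 1.40), an actin-linked relative of EPS8, and COL7A1 (1.57 to 4.29 FPKM, 1.04), the collagen of anchoring fibrils, had low levels in both libraries.

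**Figure D2:**
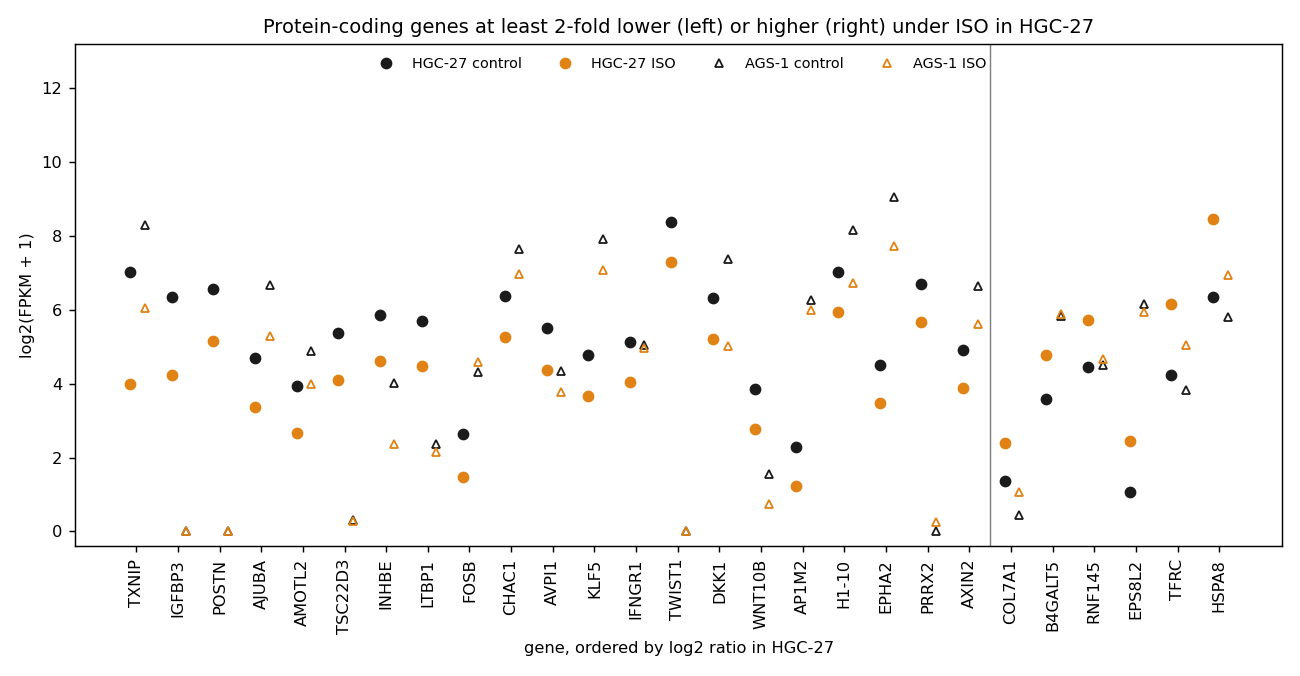
Levels as log2(FPKM + 1) of protein-coding genes at least 2-fold lower (left of the line) or higher (right) under ISO in HGC-27, with filled circles for HGC-27 and open triangles for AGS-1, black for control and orange for ISO. POSTN and TWIST1 lie at 0 in both AGS-1 libraries, and HSPA8 and TFRC are higher under ISO in both lines.

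The line of 2-fold separates genes with like values. Just inside it on the rising side were COL7A1 (1.04) and an unannotated gene (1.02), and just outside were EGR1 (12.4 to 25.5 FPKM, 0.99) and HEXIM1 (15.8 to 32.3 FPKM, 0.98). On the falling side AXIN2 (−1.03) and PRRX2 (−1.03) were just inside, and CCN2 (−0.98), ZNF385A (−0.97) and MYL9 (−0.95) just outside. Measured from the median of all genes, or with median-of-ratios scaling, AP1M2, AXIN2, DKK1, EPHA2, H1-10, IFNGR1, PRRX2, TWIST1 and WNT10B are no longer past 2-fold, and upper-quartile scaling also removes AVPI1, CHAC1 and KLF5.

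The other 10 genes on the rising side and 5 on the falling side do not code for annotated proteins, and many cannot be separated from a near copy. FTH1P8 (8.48 to 24.5 FPKM, 1.43) and FTH1P7 (9.33 to 24.2 FPKM, 1.29) are pseudogenes of FTH1, the ferritin heavy chain gene, which itself was at 381 and 442 FPKM (0.21). MTATP6P1 (426 to 952 FPKM, 1.16) is a nuclear copy of a stretch of the mitochondrial genome on chromosome 1, and its mitochondrial counterpart MT-ATP6 went from 5510.5 to 6928 FPKM (0.33). TMSB4XP8 (45.1 to 16.1 FPKM, −1.43, 123 and 37 fragments) copies TMSB4X, which codes for thymosin beta-4 and went from 43.7 to 29.96 FPKM (−0.53). The processed pseudogene ENSG00000226744 (69.2 to 25.2 FPKM, −1.42) overlaps, on the opposite strand, the gene of asparagine synthetase, ASNS, which was not analysed here. The pseudogene ENSG00000265982 had 7 and 14 fragments, and ENSG00000270705 had 1 and 0, under the floor of 3 fragments, so no fold is given for it. The mitochondrial tRNA gene MT-TI had 11 and 25 fragments. The 5 unannotated genes all lie on patch or haplotype copies of chromosomes.

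Promoter sequence was examined for genes that move together. RefSeq promoters (GRCh38.p14) were matched for 23 of the 43 genes past 2-fold and for 2253 of the 2897 genes, and the 250 bases before the start site were searched on both strands for 6 short motifs. GAANNTTC, the core of the heat shock element, was in 2 of 6 promoters of genes at least 2-fold higher, 1 of 17 at least 2-fold lower, 3 of 40 at least 1.5-fold higher, 5 of 106 (4.72%) at least 1.5-fold lower, 126 of 2253 of all genes (5.59%) and 5.78% of 35116 promoters. GGAATG, the site of TEAD factors of the Hippo pathway, was in 4 of 17 promoters of genes at least 2-fold lower and 2 of 6 at least 2-fold higher. At 1.5-fold it was in 21 of 106 (19.8%) on the falling side and 3 of 40 on the rising side, against 11.7% of all genes and 11.9% of all promoters. TGATGNAA, a motif of ATF4, the factor of the amino acid response, was in 2 of 17 on the falling side and 0 of 6 on the rising side, and at 1.5-fold in 3 of 106 (2.83%) and 1 of 40, against 2.26% of all genes and 3.14% of all promoters. TATAAA, the TATA box, was in 2 of 6 promoters on the rising side and in 6 of 17 on the falling side, and at 1.5-fold in 4 of 40 and 15 of 106 (14.2%), against 7.59% of all genes and 10.7% of all promoters. CACGTG, the E-box, was in 1 of 6 and 0 of 17, and at 1.5-fold in 6 of 40 and 8 of 106 (7.55%), against 13.005% and 6.34%. TGANTCA, bound by AP-1, was in 1 of 6 and 1 of 17, and at 1.5-fold in 2 of 40 and 3 of 106 (2.83%), against 5.19% and 6.57%. A match is a description and not a binding site. The start sites are those of the RefSeq promoter table and can lie inside a gene as the expression table bounds it, which is so for HSPA8 and CHAC1.

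Promoters with a match are given for 5 genes, chosen after their values were seen, because each holds a motif of the heat shock, TEAD or ATF4 factors. Each is the 250 bases before the start site, 5′ to 3′ in the direction of the gene, with the motif in capitals. HSPA8 (chr11:123062137-123062386, minus strand) has GAANNTTC at both −230 and −50 from the start site. DNAJA1 (chr9:33025023-33025272, plus strand) codes for a partner of HSP70 and has the same motif at −198.
HSPA8: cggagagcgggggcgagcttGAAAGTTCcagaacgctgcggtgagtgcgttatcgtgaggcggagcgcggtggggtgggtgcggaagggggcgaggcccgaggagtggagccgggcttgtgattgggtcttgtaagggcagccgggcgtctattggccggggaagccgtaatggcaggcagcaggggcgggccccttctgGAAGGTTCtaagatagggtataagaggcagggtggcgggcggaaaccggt
DNAJA1: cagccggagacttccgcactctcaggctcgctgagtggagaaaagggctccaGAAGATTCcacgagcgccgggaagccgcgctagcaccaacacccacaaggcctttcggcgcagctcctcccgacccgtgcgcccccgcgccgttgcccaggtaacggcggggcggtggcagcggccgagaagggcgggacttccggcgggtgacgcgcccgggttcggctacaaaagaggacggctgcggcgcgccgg
CCN2 (chr6:131951373-131951622, minus strand), a much used target gene of the Hippo pathway, has GGAATG at −169, −104 and −95. EPHA2 (chr1:16156070-16156319, minus strand) has it once, at −73 and read on the other strand.
CCN2: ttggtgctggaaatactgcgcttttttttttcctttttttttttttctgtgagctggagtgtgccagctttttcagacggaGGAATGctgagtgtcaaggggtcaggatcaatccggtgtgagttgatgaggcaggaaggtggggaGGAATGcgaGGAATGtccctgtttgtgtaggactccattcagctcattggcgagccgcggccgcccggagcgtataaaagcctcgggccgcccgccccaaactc
EPHA2: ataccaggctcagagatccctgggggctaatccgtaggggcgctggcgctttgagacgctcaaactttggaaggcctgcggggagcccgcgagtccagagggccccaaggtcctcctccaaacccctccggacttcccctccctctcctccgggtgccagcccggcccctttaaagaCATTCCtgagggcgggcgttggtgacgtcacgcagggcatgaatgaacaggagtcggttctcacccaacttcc
CHAC1 (chr15:40953221-40953470, plus strand) has TGATGNAA at −209, read on the other strand.
CHAC1: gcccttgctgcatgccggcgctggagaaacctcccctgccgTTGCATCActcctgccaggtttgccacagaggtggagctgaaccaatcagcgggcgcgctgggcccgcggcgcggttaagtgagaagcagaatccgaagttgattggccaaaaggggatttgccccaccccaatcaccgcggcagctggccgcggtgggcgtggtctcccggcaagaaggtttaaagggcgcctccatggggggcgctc

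To see which functions moved, 58 lists of genes were written by hand, besides the 6 lists of markers, and 54 of them had the 5 members in the table that a median requires. The median of 9 lists lay at least 0.1 above the median of all genes on the log2 scale, that of 19 lists at least 0.1 below it, and that of 26 in between. Past that line but not under every other setting were the lists of the proteasome, the TCA cycle, the mitochondrial ribosome, intermediate filaments, integrins, caspases and cell junctions. Of the 54 lists, 18 had no member past 1.5-fold. The lists hold 1074 genes of the table (37.1%), among them 25 of the 69 genes at least 1.5-fold higher and 73 of the 156 lower. Counts of members can be read against the shares in the whole table, 2.38% higher and 5.38% lower, and medians against −0.11. Lists and members were chosen with earlier results of these data known, so a departure from these shares describes the lists and tests nothing.

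**Figure D3:**
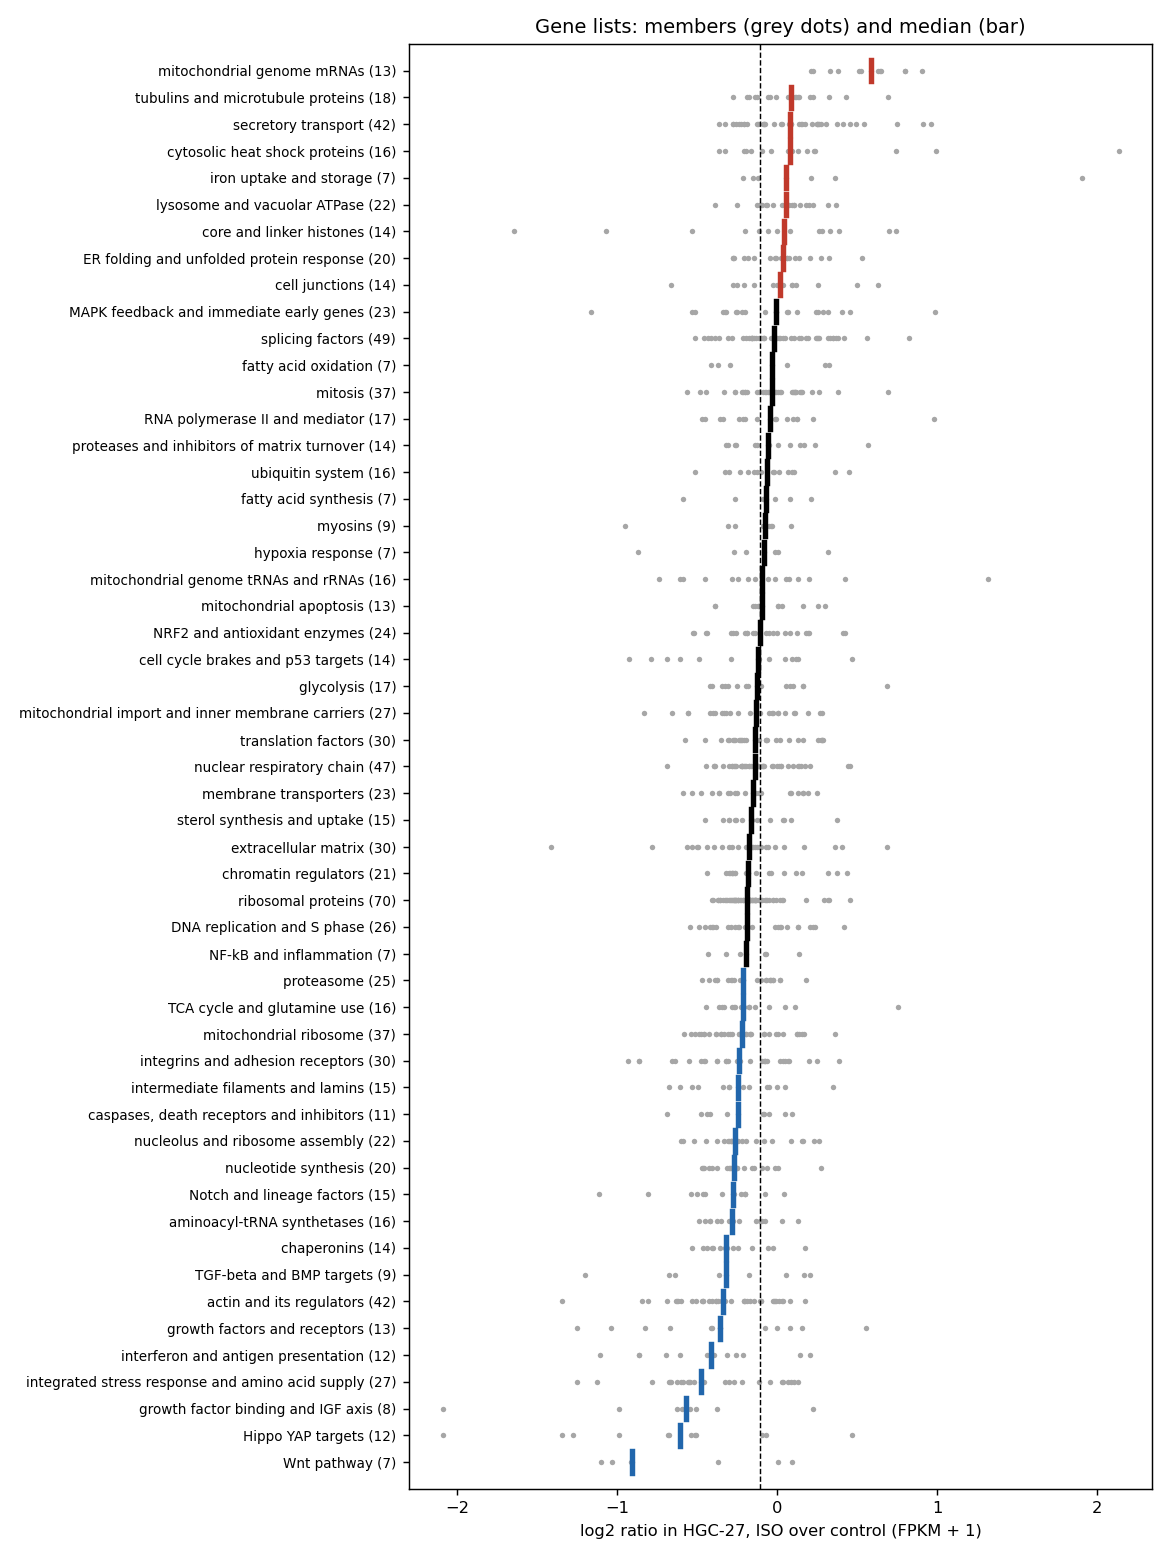
Log2 ratios of ISO to control in HGC-27 for the members of gene lists (grey dots, number of members in parentheses) with the median of each list as a bar, red or blue where it is at least 0.1 above or below the dashed median of all genes (−0.11). The mRNAs of the mitochondrial genome are at the top (0.59) and the Wnt pathway at the bottom (−0.91).

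The Hippo pathway restrains the coactivators YAP and TAZ, which act through TEAD factors on genes of growth and adhesion. The list of Hippo targets also holds genes of the pathway itself, such as AJUBA and TEAD4. Of its 12 genes in the table, 6 were at least 1.5-fold lower and 0 higher, and their median was −0.61 (−0.50 relative to all genes, and −0.36 with a pseudocount of 5). Besides IGFBP3, AJUBA and AMOTL2, the secreted growth regulator CCN2 went from 7.92 to 3.51 FPKM (−0.98) and TEAD4, itself a TEAD factor, from 22.7 to 13.7 FPKM (−0.68). GADD45B, at 8.61 and 12.3 FPKM, was the member with the highest ratio (0.47). In AGS-1 the median of the same genes was −0.70, where that of all genes was −0.29.

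The Wnt pathway acts through beta-catenin, and AXIN2, DKK1 and SP5 are feedback and target genes of it. Of 7 members, 4 were at least 1.5-fold lower, and the median was −0.91 (−0.80 relative to all genes, but −0.44 with a pseudocount of 5 and −0.53 among genes of at least 10 FPKM). SP5, a transcription factor, went from 6.66 to 3.08 FPKM (−0.91), and LGR4, a receptor for R-spondins, from 15.7 to 7.92 FPKM (−0.91). DVL1, which relays the signal from the receptor, was at 36.8 and 28.2 FPKM. The 4 lower genes are targets and receptors, while CTNNB1, the gene of beta-catenin, was at 11.6 and 12.4 FPKM.

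Proteins that bind insulin-like growth factors set how much of these factors reaches the receptor. Of 8 genes of this axis, 4 were at least 1.5-fold lower and the median was −0.57. IGFBP7 went from 62.4 to 40.1 FPKM (−0.63), IGFBP6 from 28.1 to 18.3 FPKM (−0.59) and the more abundant IGFBP4 from 255 to 175 FPKM (−0.54). All 5 IGFBP genes of the table were lower under ISO than in the control. Among 13 other growth factors and receptors, 4 were at least 1.5-fold lower (median −0.36): INHBE, EPHA2, the ephrin gene EFNA1 (10.9 to 5.71 FPKM, −0.83) and the stress cytokine GDF15 (71.1 to 44.5 FPKM, −0.67). Of 9 TGF-beta and BMP genes, 3 were lower (median −0.32), namely LTBP1, the decoy receptor BAMBI (39.8 to 24.5 FPKM, −0.68) and the coreceptor ENG (31.9 to 20.2 FPKM, −0.64), whereas ID1, a direct BMP target, was at 121 and 126 FPKM. Among 15 Notch and lineage factors the median was −0.28, with KLF5 and the homeobox gene HOXB9 (34.4 to 19.3 FPKM, −0.80) past 1.5-fold. Relative to all genes this median was −0.17, but −0.34 with a pseudocount of 0.1 and −0.29 among genes of at least 10 FPKM.

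Cells that lack amino acids or meet misfolded proteins slow translation and make more ATF4, which turns on genes for amino acid synthesis and uptake. Of 27 genes of this response, 9 were at least 1.5-fold lower and 0 higher, and the median was −0.47 (−0.37 relative to all genes). Enzymes of serine synthesis were among them, PSAT1 at 522 FPKM in the control and 338 FPKM under ISO (−0.62) and PSPH at 46.2 and 26.5 FPKM (−0.78). PHGDH, the first enzyme of that route, was at 78.3 and 84.3 FPKM, so its level did not follow theirs. EIF4EBP1, a brake on cap-dependent translation, went from 261 to 163 FPKM (−0.68), and SLC1A5, a glutamine transporter, from 135 to 89.1 FPKM (−0.59). The ATF4 mRNA was at 229 and 235 FPKM (0.04), and SLC7A5, which carries large neutral amino acids, was at 287 and 314 FPKM. PHGDH and ATF4 were picked out after their values were seen.

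Other functions of synthesis lay slightly below the median of all genes without large changes of single genes. The 16 aminoacyl-tRNA synthetases, which charge tRNAs, had a median of −0.28, the 20 genes of nucleotide synthesis −0.27 and the 14 chaperonin genes −0.32, each with 0 members past 1.5-fold. The 22 genes of the nucleolus and ribosome assembly had −0.26, with NOB1 (40.9 to 26.7 FPKM, −0.60) and BYSL (35.8 to 23.5 FPKM, −0.59), both of the small subunit's maturation, past 1.5-fold. The 70 ribosomal protein genes had −0.19, close to all genes, but 17 of them lay above the median of all genes. The 37 proteins of the mitochondrial ribosome had −0.22. The most abundant ribosomal protein mRNAs were RPS2 at 1484 and 1242 FPKM and RPL41 at 1181 and 981 FPKM. Of 25 proteasome genes none passed 1.5-fold (median −0.21).

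Of 42 genes of actin and its regulators, 8 were at least 1.5-fold lower, 0 higher, and 11 lay above the median of all genes (list median −0.34). Beside AJUBA, they include the calponin gene CNN2 (76.2 to 42.0 FPKM, −0.85), LIMA1 (19.5 to 10.7 FPKM, −0.80), which crosslinks filaments, and SYNPO (11.4 to 6.68 FPKM, −0.69). ACTB, which codes for beta-actin and is often taken as a constant reference, was at 539 and 427 FPKM (−0.33). TMSB10, which binds actin monomers, was at 909.6 and 1027 FPKM (0.18). Of 9 myosin genes only the light chain gene MYL9 (13.3 to 6.42 FPKM, −0.95) passed 1.5-fold. Microtubule genes lay on the other side, with a median of 0.09 for 18 genes and TUBB4B, a beta-tubulin, at 119.6 and 194 FPKM (0.70).

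Of 30 genes of the list of integrins and adhesion receptors, 5 were at least 1.5-fold lower and 0 higher (median −0.24). The list is wider than its name, since it also holds ANXA1 and S100A10, which are neither. Relative to all genes this median was −0.13, but −0.08 with a pseudocount of 5 and −0.26 among genes of at least 10 FPKM. ANXA1, an annexin that binds membranes, went from 56.1 to 28.98 FPKM (−0.93), the cell adhesion gene ALCAM from 30.3 to 16.2 FPKM (−0.86), and S100A10, a partner of annexin A2, from 106 to 57.8 FPKM (−0.86). Matrix genes were less uniform. Of 30 of them, POSTN and the collagen gene COL5A2 (92.3 to 53.3 FPKM, −0.78) were at least 1.5-fold lower and the heparan sulfate proteoglycan gene GPC1 (19.0 to 31.3 FPKM, 0.69) higher, and the median was −0.17. COL3A1 was at −0.56 and COL1A1 at −0.15. MMP14, a membrane-bound protease that cuts matrix, was at 142 and 211 FPKM (0.57), just under the line.

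Of 12 genes of the interferon and antigen presentation list, 5 were at least 1.5-fold lower and 0 higher (median −0.41). BST2, which tethers virus particles to the membrane, had 577 FPKM in the control and 316 FPKM under ISO (−0.86). ISG15, a ubiquitin-like protein, had 567 and 372 FPKM (−0.61). The membrane proteins IFITM2 (105 to 57.4 FPKM, −0.86) and IFITM1 (169 to 104 FPKM, −0.69) moved likewise, and IFI6 was at 548 and 472 FPKM (−0.21).

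The functions that rose relative to all genes were led by the mitochondrial genome, which codes for 13 subunits of the respiratory chain. All 13 mRNAs were higher under ISO, 7 of them at least 1.5-fold, and their median was 0.59 (0.70 relative to all genes). Their share of the library was 7.14% in the control (95% Wilson interval 7.12 to 7.15) and 9.55% under ISO (9.54 to 9.57). MT-CO2, a subunit of complex IV, went from 11916 to 18595 FPKM (0.64) and MT-CYB, of complex III, from 2605 to 4545 FPKM (0.80). MT-CO1, the most abundant of them in the control, changed least, from 15359 to 17803 FPKM (0.21). As a set, the RNAs of the same genome that are not mRNAs did not move with them in HGC-27. The 16 tRNAs and rRNAs of the table had a median of −0.10, with 1 at least 1.5-fold higher and 3 lower. The tRNA MT-TN was at 6846 and 9197 FPKM (0.43) and the rRNA MT-RNR2 at 14292 and 15646 FPKM (0.13). Mitochondrial tRNAs are far shorter than a library fragment and lack the usual tail, so their values carry more doubt. The 47 nuclear genes of the respiratory chain had a median of −0.14, with 0 at least 1.5-fold higher and 1 lower, COX8A (243 to 150.5 FPKM, −0.69). Nuclear and mitochondrial subunits of the same complexes thus had different ratios. FPKM are shares, so this larger share lowers all others. Scaling without the mitochondrial genome multiplied ISO values relative to control by a factor of 0.04 on the log2 scale, less for genes with low values because of the added 1.

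Heat shock proteins did not move as a block. Of 16 cytosolic heat shock genes, 3 were at least 1.5-fold higher, HSPA8 and DNAJA1 (56.1 to 94.6 FPKM, 0.74) among them, and 0 were lower. The most abundant of the list, HSP90AB1, was at 721 and 791 FPKM (0.13), and the small heat shock protein HSPB1 at 398 and 309.6 FPKM (−0.36). The list median was 0.08. HSPA8 thus stands apart from the other members.

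Secretory transport carries new proteins from the ER through the Golgi. Of its 42 genes, 30 lay above the median of all genes, 3 were at least 1.5-fold higher and 0 lower, with a median of 0.08 (0.19 relative to all genes). TMED9, a cargo receptor, went from 26.0 to 51.5 FPKM (0.96). SEC61A1, the channel through which proteins enter the ER, went from 79.1 to 149.9 FPKM (0.91), and the coat protein gene SEC13 from 14.9 to 25.7 FPKM (0.75). These 3 genes rose together, while ARF1 (−0.12) and LMAN2 (0.03), the most abundant of the list, stayed close to their control level. Of 22 lysosome and vacuolar ATPase genes, 19 lay above the median of all genes (list median 0.06), although none passed 1.5-fold, and PSAP, the precursor of saposins, was at 362 and 378 FPKM. The 20 genes of ER folding had a median of 0.03, with CALR, the chaperone calreticulin, at 378 and 385 FPKM.

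**Figure D4:**
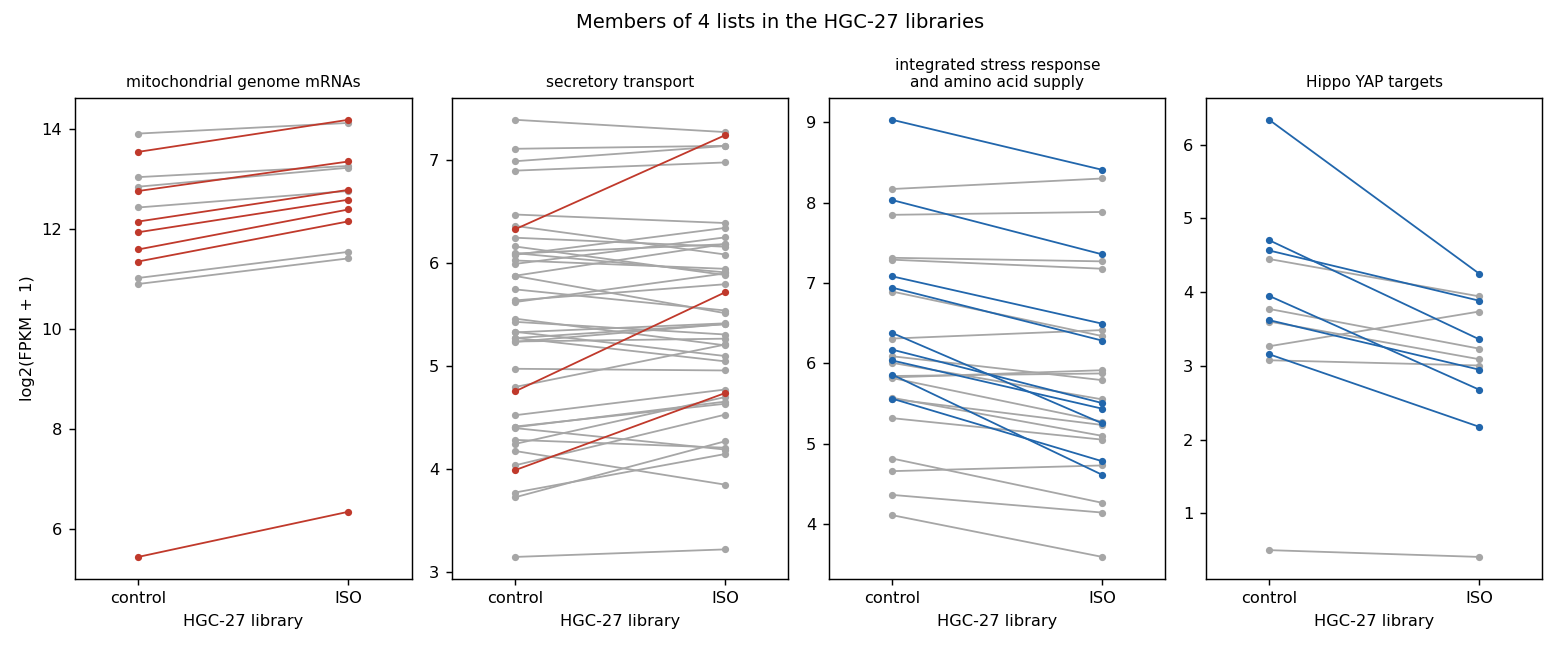
Levels as log2(FPKM + 1) in the HGC-27 control and ISO libraries, 1 line per gene, for 4 lists, with red for genes at least 1.5-fold higher, blue for genes at least 1.5-fold lower and grey for the rest. All 13 mRNAs of the mitochondrial genome slope upward, and 9 of 27 genes of the integrated stress response and 6 of 12 genes of the Hippo list are blue.

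Iron genes changed at 1 point. TFRC was the only one of 7 members past 1.5-fold, while the ferritin genes FTL at 651 and 678 FPKM and FTH1 at 381 and 442 FPKM had ratios of 0.06 and 0.21. Uptake and storage thus had unlike ratios.

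Chromatin genes moved both ways. Of 14 genes of the list of histones and HMG proteins, H2BC12 (33.6 to 56.9 FPKM, 0.74) and H1-2 (25.8 to 42.6 FPKM, 0.70) were at least 1.5-fold higher, and H1-10 was lower. The list median was 0.04, and HMGA1, an abundant architectural protein, was at 246 and 170.2 FPKM (−0.53).

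The division cycle changed little at the level of lists. The 37 mitosis genes had a median of −0.03 and the 26 replication genes −0.19, with 1 and 0 at least 1.5-fold higher and 0 lower in both. TUBB4B was the 1 in the first list. Of 14 cell cycle brakes and p53 targets, 4 were at least 1.5-fold lower. PLK2 went from 29.7 to 15.2 FPKM (−0.92), the CDK inhibitors CDKN2B from 17.5 to 9.68 FPKM (−0.79) and CDKN2A from 68.1 to 42.0 FPKM (−0.69), and GADD45A from 51.7 to 33.6 FPKM (−0.61). The list median was −0.12, close to that of all genes, and the lower quartile was −0.58. Of 23 immediate early and MAPK feedback genes, EGR1 (0.99) was higher and FOSB (−1.16) lower, and the median was −0.01.

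The mRNAs of proteins linked to apoptosis or used as loading references were read as well, and 5 of 7 are in the table. BAX, which opens the outer mitochondrial membrane, was at 20.7 and 25.8 FPKM (0.30, counting SE 0.0612). CYCS, the gene of cytochrome c, was at 50.7 and 47.4 FPKM (−0.10), and PARP1, a substrate of caspases, at 17.7 and 18.9 FPKM (0.09). None of these passed 1.5-fold, nor did COX4I1 at 52.9 and 48.3 FPKM (−0.13). BCL2 was not analysed here. In AGS-1 BAX was at 143 and 103 FPKM. The 13 genes of mitochondrial apoptosis had a median of −0.10 and 0 members past 1.5-fold. Relative to all genes their median was 0.0089, but 0.12 among genes of at least 10 FPKM. Of 11 genes of caspases, death receptors and inhibitors, TNFRSF12A, a receptor of the TNF family, was lower (38.4 to 23.5 FPKM, −0.69).

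Glycolysis had a median of −0.12 over 17 genes, with GAPDH at 1211 and 1131 FPKM, and ENO2, a neuronal form of enolase, was the 1 gene past 1.5-fold (21.4 to 35.2 FPKM, 0.69). The TCA cycle and glutamine list had −0.21 (−0.11 relative to all genes), with OGDH, of the 2-oxoglutarate dehydrogenase complex, higher (30.8 to 52.9 FPKM, 0.76). Sterol synthesis had −0.16 over 15 genes with 0 past 1.5-fold, against a median of 0.96 for the same genes in AGS-1. SQLE, an early enzyme of the sterol branch, was at 165 and 131 FPKM in HGC-27 and 10.2 and 20.8 FPKM in AGS-1. SREBF1, a lipid regulator, was lower in HGC-27 (90.4 to 59.9 FPKM, −0.59), and the 7 genes of fatty acid synthesis had a median of −0.07. The 7 genes of fatty acid oxidation had −0.03. The 24 antioxidant genes had a median of −0.10, close to that of all genes, and 0 members past 1.5-fold. Of 7 hypoxia genes (median −0.08), the mTOR inhibitor DDIT4 was lower (509.9 to 278 FPKM, −0.87). Of 49 splicing factors, SF3A3 was higher (26.1 to 47.0 FPKM, 0.83) and the median was −0.02. HEXIM1, an inhibitor of the elongation factor P-TEFb, was the 1 gene past 1.5-fold among 17 of RNA polymerase II and its partners (median −0.04). Of 27 genes of mitochondrial import and carriers, TIMM13 (58.5 to 32.4 FPKM, −0.83) and TOMM40 (40.2 to 25.2 FPKM, −0.65) were lower (median −0.13).

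The remaining lists had few or no members past 1.5-fold. The 30 translation factors had a median of −0.14, the 21 chromatin regulators −0.18, the 16 genes of the ubiquitin system −0.06 and the 7 genes of NF-kB and inflammation −0.19, with 0 past the line in each. The same holds for 14 proteases and inhibitors of matrix turnover (−0.05). Of 15 intermediate filament and lamin genes (median −0.24), the keratin genes KRT8 (2.19 to 0.996 FPKM, −0.68) and KRT80 (2.95 to 1.60 FPKM, −0.60) were lower. Of 14 junction genes (median 0.02), JUP, which codes for plakoglobin, was lower (1.39 to 0.510 FPKM, −0.66) and ESAM higher (1.63 to 3.07 FPKM, 0.63). Of 23 membrane transporters (median −0.15), SLC1A5 was lower. Of lists with fewer than 5 members in the table, the aryl hydrocarbon receptor targets were NFE2L2 (17.8 to 11.8 FPKM, −0.55) and TNFAIP2 (1.16 to 0.498 FPKM, −0.52), and metallothioneins and zinc transport were MT2A (164 to 183 FPKM, 0.16) and SLC30A1 (12.99 to 15.4 FPKM, 0.23). TXNIP was the only target of the glucose sensor MondoA and TWIST1 the only factor of the epithelial-mesenchymal transition in the table.

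Level had a small effect on the ratio. The median was −0.05 for 302 genes with a mean under 10 FPKM, −0.07 for 1328 genes from 10 to 30 FPKM, −0.15 for 1011 genes from 30 to 100 FPKM, −0.18 for 183 genes from 100 to 300 FPKM and −0.15 for 73 genes of 300 FPKM and over. Abundant genes thus lay slightly lower. Among the 73 most abundant, 7 were at least 1.5-fold higher and 7 lower, and the higher ones are mostly mRNAs of the mitochondrial genome.

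Gene length, as the table gives it, went with the ratio as well. From the shortest to the longest quartile the median was −0.18, −0.13, −0.08 and −0.04. In the shortest quartile, up to 2335 bases, 73 of 725 genes (10.1%) were at least 1.5-fold lower and 31 (4.28%) higher, and in the longest 25 of 724 (3.45%) were lower and 15 (2.07%) higher. Among protein-coding genes only, 55 of 566 in the shortest quartile (9.72%) were lower and 14 (2.47%) higher, and in the longest 24 of 721 (3.33%) and 15 (2.08%). Without the ribosomal proteins the 4 medians were −0.18, −0.13, −0.07 and −0.03. The lists were also read with each ratio taken from the median of genes of like length, which moved no list median by 0.1 or more. It did move some across the line of 0.1 from all genes: relative to all genes, the proteasome went from −0.11 to −0.03, the mitochondrial ribosome from −0.11 to −0.08, cell junctions from 0.12 to 0.09, the extracellular matrix from −0.07 to −0.12, and NF-kB and inflammation from −0.09 to −0.12.

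By chromosome, the medians of the nuclear chromosomes with at least 20 genes ran from −0.19 on chromosome 7 (151 genes) to −0.04 on chromosome 13 (35 genes). The mitochondrial genome, with 29 genes, stood apart at 0.21. On chromosome 19, 17 of 271 genes (6.27%) were at least 1.5-fold lower and 1 was higher, and on chromosome 1, 14 of 355 (3.94%) were lower and 3 higher. No nuclear chromosome with at least 20 genes departed from the median of all genes by 0.1 or more.

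By gene type, the 2725 protein-coding genes had a median of −0.11 and set that of the table. The 88 processed pseudogenes had −0.17, with 10 at least 1.5-fold lower (11.4%) and 6 higher (6.82%), and the 21 unannotated genes −0.15. The 17 lncRNA genes had a median of 0.02, with 11 above the median of all genes, and the 5 unprocessed pseudogenes 0.88, with 3 at least 1.5-fold higher. Of these 3, MTATP6P1 and MTCO1P12 (37.6 to 70.0 FPKM, 0.88) are copies of mitochondrial genes, so reads may be shared. ENSG00000265982, the remaining one, had 7 and 14 fragments. Of 8 miRNA genes, 7 lay above the median of all genes, with few fragments each. MIR25, within MCM7, had 42 and 89 fragments (24.8 to 62.1 FPKM, 1.29), and MIR3153, within CKS2, had 12 and 28 (7.24 to 20.001 FPKM, 1.35). An mRNA library reads the host transcript and not the mature miRNA, and reads of host and miRNA gene cannot be told apart. The host mRNAs were at 163 and 132 FPKM for MCM7 and 144 and 156 FPKM for CKS2. Among 9 snoRNA genes, SNORA33 (24.0 to 42.8 FPKM, 0.81) and SNORD104 (81.3 to 143 FPKM, 0.81) were at least 1.5-fold higher.

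**Figure D5:**
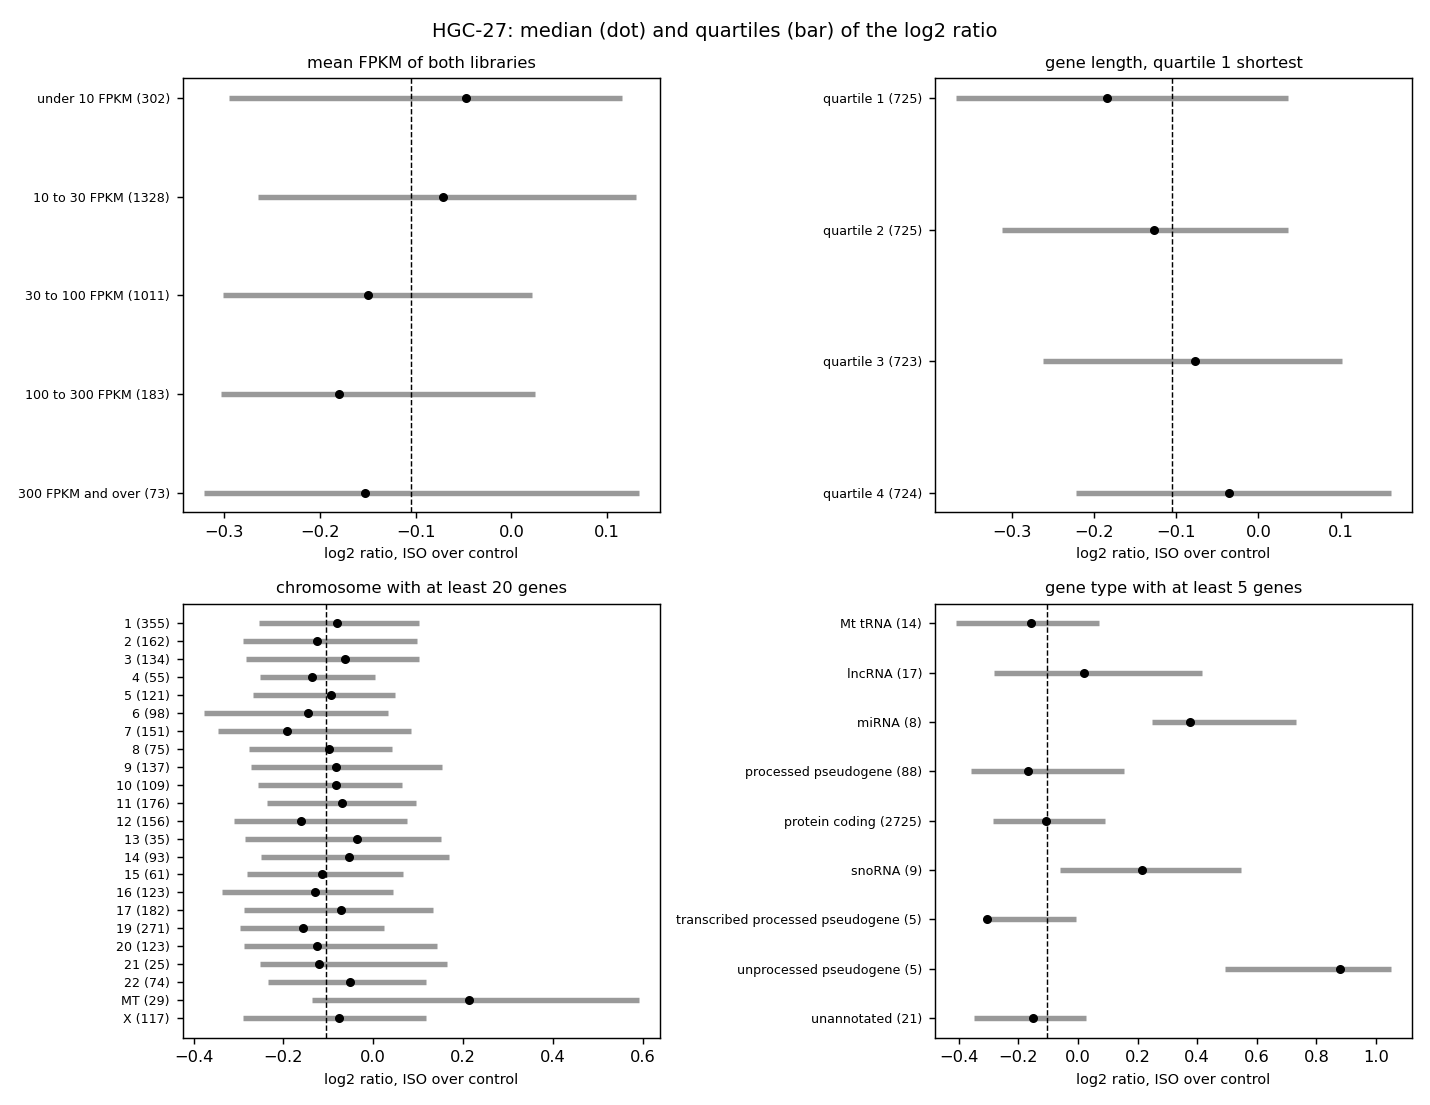
Median (dot) and quartiles (bar) of the log2 ratio of ISO to control in HGC-27 by mean level, gene length, chromosome and gene type, with the number of genes in parentheses and the median of all genes (−0.11) dashed. The mitochondrial genome (0.21) lies apart from the nuclear chromosomes, and the medians climb from the shortest (−0.18) to the longest genes (−0.04).

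The table also names a protein domain for many genes, a grouping used after its values were seen. Domains with at least 10 genes were read, and those whose medians lay furthest from that of all genes are given. Of the others, filament proteins lay furthest (−0.19 relative to all genes), and Ras proteins were at −0.01. LIM domain proteins connect adhesion sites with actin, and 5 of 10 were at least 1.5-fold lower, with a median of −0.66. FHL3 went from 35.9 to 18.3 FPKM (−0.93), FBLIM1 from 6.33 to 3.06 FPKM (−0.85) and CRIP2 from 43.4 to 25.7 FPKM (−0.73), beside AJUBA and LIMA1. C2H2 zinc finger factors had a median of −0.47 over 11 genes, 10 of which lay below the median of all genes, and KLF5 and SP5 passed 1.5-fold. DEAD box RNA helicases lay on the other side, with a median of 0.16 over 13 genes, 11 of them above the median of all genes, and DDX23, a splicing helicase, was highest (19.5 to 30.7 FPKM, 0.63).

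Set beside AGS-1, 71 genes there were at least 1.5-fold higher (2.45%) and 698 lower (24.1%). Of the 156 genes at least 1.5-fold lower in HGC-27, 75 were also lower in AGS-1, which is 48.1% of the former and 10.7% of the latter. Of the 69 higher in HGC-27, 12 were also higher in AGS-1 (17.4% and 16.9%). The medians of all genes were −0.11 in HGC-27 and −0.29 in AGS-1. The mRNAs of the mitochondrial genome had a median of 0.59 in HGC-27 and 0.87 in AGS-1, and its tRNAs and rRNAs −0.10 and 0.84. The genes of the integrated stress response had −0.47 and −0.59, and actin and its regulators −0.34 and −0.67. Differences between the lines were not tested.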

How the data were processed

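Values are the FPKM that the authors deposited. The submitters' processing notes name CASAVA 1.8, HISAT2 (version not given) and the genome build GRCh38/hg38. Fragments were recovered from FPKM and gene length, and 100% of values were whole within 0.01 fragments. Log2 ratios used a pseudocount of 1 FPKM. Genes named by a rule fixed beforehand are those past 2-fold, up to 4 members of a list past 1.5-fold each way, the 2 most abundant members of a list, and those whose proteins the study measured. Other genes, among them PHGDH, ATF4, CTNNB1, GADD45B, IFI6, VIM, COL6A2, EPCAM, KRT19, ZNF385A, TMSB4X, MT-ATP6, SNORA33, SNORD104, FHL3, FBLIM1, CRIP2 and DDX23, were chosen after their values were seen. So were the alternative with ratios centred by gene length, the protein domains and the printed promoters, including DNAJA1 and CCN2, which passed 1.5-fold but not 2-fold. Members and lists were chosen with earlier results of these data known. Of 2897 genes, 52 had no symbol in the table and 9 were matched from a table of gene names. The scripts ran in Python 3.11.15 with matplotlib 3.10.9 for figures, scipy 1.17.1 for intervals, and pandas 2.3.3 and numpy 2.4.6 for tables. Some genes and 1 list are not reported here.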

Additional observations from a re-analysis of the deposited data

Results flagged for a closer look

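7 genes passed 1.5-fold in opposite directions in HGC-27 and AGS-1; with 1 library per condition the difference was not tested. ESAM had a log2 ratio of 0.63 in HGC-27 (96 and 153 fragments) and −2.05 in AGS-1 (1491 and 343 fragments). The mitochondrial tRNA genes MT-TV (−0.73 in HGC-27, 0.98 in AGS-1) and MT-TE (−0.61 and 0.81) had at most 180 fragments in any library. The pseudogenes ENSG00000264281 (0.75 and −0.81) and SUMO2P21 (0.60 and −0.67) are near copies of other genes, so reads may be shared. An unannotated gene on a patch had 1.75 and −1.20, with 434 and 1319 fragments in HGC-27. Another, on a haplotype copy of chromosome 6, had −0.64 and 0.61, with 0 and 4 fragments in AGS-1.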

How the results depend on the processing

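Over 10 other settings, no list or group median at least 0.1 from the median of all genes changed sign relative to it; 867 values moved by less than 0.1 and 7 by more. Of lists nearer to it, some changed sign: centred by gene length, hypoxia went from 0.02 to −0.05, myosins from 0.03 to −0.02, mitochondrial import from −0.03 to 0.0087 and cell cycle brakes from −0.01 to 0.02. With a pseudocount of 5, cell cycle brakes were at 0.0066, mitochondrial tRNAs and rRNAs at −0.0038 and antioxidant enzymes at −0.01. Genes at least 2-fold higher (16) numbered 27 with a pseudocount of 0.1, 26 with upper-quartile scaling, 25 with ratios centred by gene length and 6 among protein-coding genes only, where fewer genes were tested. Genes at least 2-fold lower (27) numbered 46 and 16 with pseudocounts of 0.1 and 5, 15 with upper-quartile scaling and 14 centred by length. At 1.5-fold, higher genes (69) numbered 115 with median-of-ratios scaling and with ratios minus the median, 132 with upper-quartile scaling and 114 centred by length. Lower genes (156) numbered 97 with a pseudocount of 5, 92 with median-of-ratios scaling and minus the median, 83 with upper-quartile scaling and 89 centred by length. The median of all genes (−0.11) was 0.030611 with upper-quartile scaling, a reversed sign, and 0 with median-of-ratios scaling, minus the median and centred by length. These settings shift the ratios upward, centring by length by a different amount in each quartile, which moves the counts. Relative to all genes, the Notch list was at −0.34 with a pseudocount of 0.1 and −0.29 with genes of at least 10 FPKM. The Wnt list was at −0.44 with a pseudocount of 5 and −0.53 at 10 FPKM, and the Hippo list at −0.36 with a pseudocount of 5. At 10 FPKM, mitochondrial apoptosis was at 0.12 and integrins at −0.26. The cause was not tested. Centring by gene length was added after seeing the data.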
